A study of Homo sapiens with 4 samples.

Results

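The type I interferon response and the presentation of antigen on MHC class I were described through 56 genes, chosen by name for their roles as sensors, receptors, transcription factors, effectors and antigen processing factors. All 56 matched a gene ID among the 61852 genes of the deposited tables. RNA was sequenced after poly(A) purification from 4 libraries of H1299, an established human line of non-small-cell lung carcinoma that lacks endogenous p53. In 2 libraries the p53-null cells expressed CASM34, a p53 coding sequence that the series places among the synonymous mutations found in cancer, which change a codon and not the amino acid. In the other 2 the same p53-null cells expressed wild-type p53 (p53WT). The labels give the genotype p53-/- for all 4 libraries and state no treatment with interferon, no infection and no DNA damaging agent. They do not say how p53 was introduced or whether the libraries came from separate cultures, so p-values here reflect variation among the libraries alone, which could be technical. Cells without any p53 were not analysed here, and the comparison is CASM34 against p53WT.

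Cells sense foreign or misplaced nucleic acid with RNA helicases such as RIG-I and MDA5 and with the DNA sensor cGAS. These act through the adaptors MAVS and STING to activate the transcription factors IRF3 and IRF7, which switch on interferon genes. Secreted type I interferon binds its receptor, the kinases JAK1 and TYK2 then phosphorylate STAT proteins, and a complex that holds STAT2 and IRF9 binds the interferon-stimulated response element (ISRE) in the promoters of target genes. The products of these genes block viral replication, and some of them load peptides onto MHC class I for inspection by T cells. Several genes of this network, among them PML, IRF9, TAP1 and ISG15, have been described as targets of p53 in other work.

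Promoter windows from 250 bases before to 50 bases after the annotated start were found in RefSeq (build GRCh38.p14) for 43 of the 56 members. A match to the ISRE core (GAAA, any 2 bases, GAAA) on either strand was present in 24 of these 43 windows (55.8%), against 996 of 27305 windows of all genes (3.65%). Matches that overlap each other were counted separately. The element TTCNNNGAA, to which STAT dimers bind, was present in 7 of the 43 windows (16.3%), against 7.88% of all windows. A match is a run of letters and was not tested for binding. The stretches below show the ISRE matches of the 3 members with the highest levels in these cells, of 3 members among those with the smallest p-values in the comparison, and of IFI27, a member with matches and a very low level. They are written on the strand of the gene, 5′ to 3′, with the matched letters in capitals and up to 15 flanking bases on each side.
IFITM3, chr11:320871-320927, minus strand: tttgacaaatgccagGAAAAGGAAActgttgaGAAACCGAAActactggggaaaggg
ISG15, chr1:1013369-1013414, plus strand: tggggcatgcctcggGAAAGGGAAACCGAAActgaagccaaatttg
B2M, chr15:44711358-44711403, plus strand: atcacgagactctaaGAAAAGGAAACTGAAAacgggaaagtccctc
TAP1, chr6:32853808-32853853, minus strand: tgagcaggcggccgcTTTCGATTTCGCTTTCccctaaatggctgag
IFI6, chr1:27672261-27672363, minus strand: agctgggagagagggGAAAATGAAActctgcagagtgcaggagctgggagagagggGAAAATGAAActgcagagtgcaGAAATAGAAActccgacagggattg
IFIT1, chr10:89392492-89392544, plus strand: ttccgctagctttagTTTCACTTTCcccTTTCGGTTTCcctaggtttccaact
IFI27, chr14:94110613-94110665, plus strand: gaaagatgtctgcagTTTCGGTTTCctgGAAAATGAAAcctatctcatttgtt

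In ISG15 and B2M a pair of matches overlap to form a longer run, which begins 113 and 144 bases before the annotated start. The matches of TAP1 begin 134 bases and those of IFIT1 116 bases before it, and both lie on the other strand. The IFI6 window holds 3 separate matches, and that of IFI27 has 1 match on each strand, the first of them 108 bases before the start.

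The estimated counts totalled 26906095 and 18086983 in the CASM34 libraries and 21717726 and 25969760 in the p53WT libraries. Of 10 epithelial and lung markers, the keratins KRT8 and KRT18 lay at 420 to 1096 TPM (the deposited level per length, scaled to a fixed total), KRT7 at 6.64 to 9.26 TPM and CLDN4 at 2.94 to 4.39 TPM. The other 6 were near 0, with at most 0.83 TPM in any library. They were the adhesion genes EPCAM and CDH1, the keratins KRT5 and KRT19, and the lung genes NKX2-1 and SFTPC. The listed lung genes were thus nearly absent, while the listed epithelial genes ran both ways. The leukocyte genes PTPRC, CD3E and NKG7 had 0 counts in all 4 libraries, and the summed level of the 8 leukocyte markers, nearly all of it CD68, was 96.8 and 98.0 TPM in CASM34 and 94.0 and 88.6 TPM in p53WT. The 8 fibroblast and endothelial markers summed to 0.970 and 4.55 TPM in CASM34 and 1.32 and 6.03 TPM in p53WT. The log2 level of a gene in each library was also taken as its deviation from the mean of the 4 libraries. Per 10 percentage points of transcript GC content, this deviation changed on average by 0.0715 and 0.0394 in CASM34 and -0.0604 and -0.0505 in p53WT. These slopes are relative to that mean and not slopes of the level itself, and they show that GC content moved with the groups.

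The H1299 libraries, for which the labels state no interferon treatment, held high levels of a few interferon-stimulated genes and very low levels of others. The membrane restriction factor gene IFITM3 was the highest member, at 506 and 532 TPM in CASM34 and 521 and 510 TPM in p53WT. It was followed by ISG15, which encodes a ubiquitin-like modifier, with a mean of 445 TPM over the 4 libraries, and by B2M, the light chain of MHC class I, with 421 TPM. Of the 56 members, 6 had a mean of at least 100 TPM, 13 lay from 20 to under 100 TPM, 25 from 5 to under 20 TPM, 7 from 1 to under 5 TPM and 5 under 1 TPM. The median of the members was 12.3 TPM, and the median of the 15965 genes high enough to test was 10.8 TPM. Nearly all members were high enough to test, and the median was 5.39 TPM over the 69 further genes of these pathways described below and 1.58 TPM over the 31 other interferon-stimulated genes among them, so the level of the members does not stand for the pathway. In bulk RNA, fewer cells with a transcript and less of it per cell cannot be told apart.

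**Figure D1:**
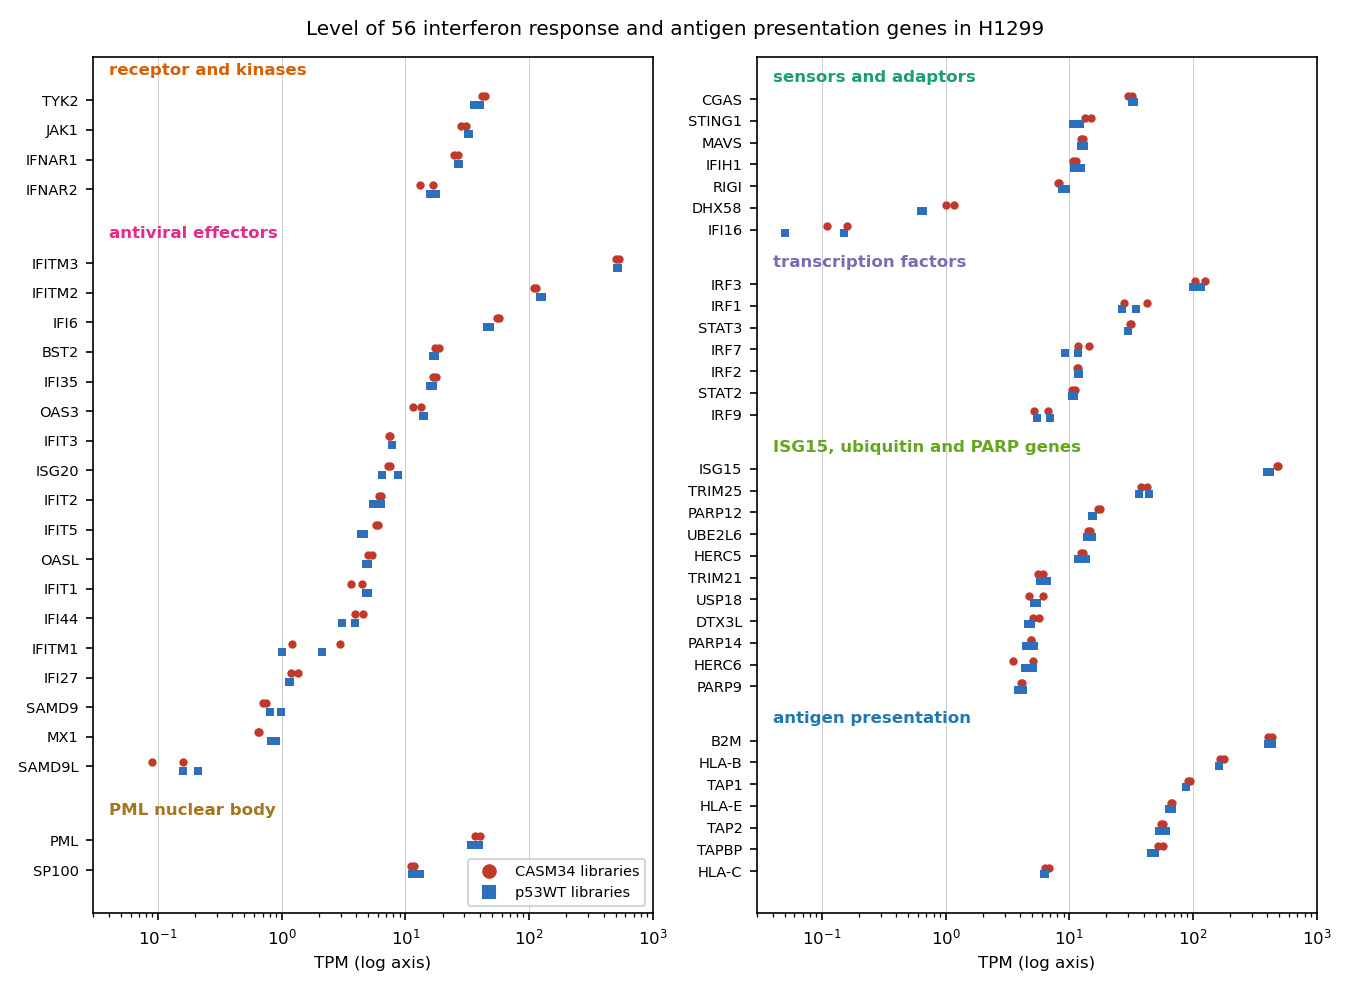
Level of each of the 56 genes in TPM on a log axis, arranged by role, with round points for the 2 CASM34 libraries and square points for the 2 p53WT libraries. Mean levels run from 0.117 TPM for IFI16 to 517 TPM for IFITM3, a far wider range than the distance between the groups for any gene.

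The order of the members was nearly the same in both groups. Across the 56 genes the mean TPM of CASM34 and of p53WT had a Spearman correlation of 0.991, given as a description across genes that share the same libraries. IFITM3, with 506 to 532 TPM, stood clear of ISG15, with 396 to 489 TPM, while ISG15 and B2M, with 404 to 437 TPM, overlapped. HLA-B followed alone with 162 to 178 TPM, and IFITM2 and IRF3 overlapped at 109 to 128 and 99.7 to 126 TPM. From the ubiquitin ligase gene TRIM25 down to STAT3, and through most of the middle of the order, neighbouring genes overlapped in their ranges over the 4 libraries. IFI16, SAMD9L, MX1, SAMD9 and DHX58 formed the bottom, all under 1 TPM on average.

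The members differed little between CASM34 and p53WT. Of the 56 genes 54 were high enough to test, and 1, ISG15, rose in CASM34, while none fell and 53 did not pass (edgeR quasi-likelihood test, p adjusted by Benjamini-Hochberg over every tested gene and under 0.05). That is 1.85% of the tested members, where 1.95% of all 15965 tested genes were called (1.61% higher and 0.345% lower), so the share among the members was near the background. At an unadjusted p under 0.05 there were 8 members, 6 higher and 2 lower, where 17.1% of all genes had such a p. The median log2 fold change of the members was 0.027, beside -0.00055 over all genes. The fitted change lay above 0 for 33 members and below 0 for 21, and all but IFI27 and SAMD9L lay between -0.31 (SAMD9) and 0.30 (IFI44). The counts of IFI27 and SAMD9L did not exceed 20 in any library. The groups did not overlap for 29 members (17 higher and 12 lower in CASM34, 53.7%), where 47.9% of all genes had groups that did not overlap. IFI16 and IFITM1 were too low to test.

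**Figure D2:**
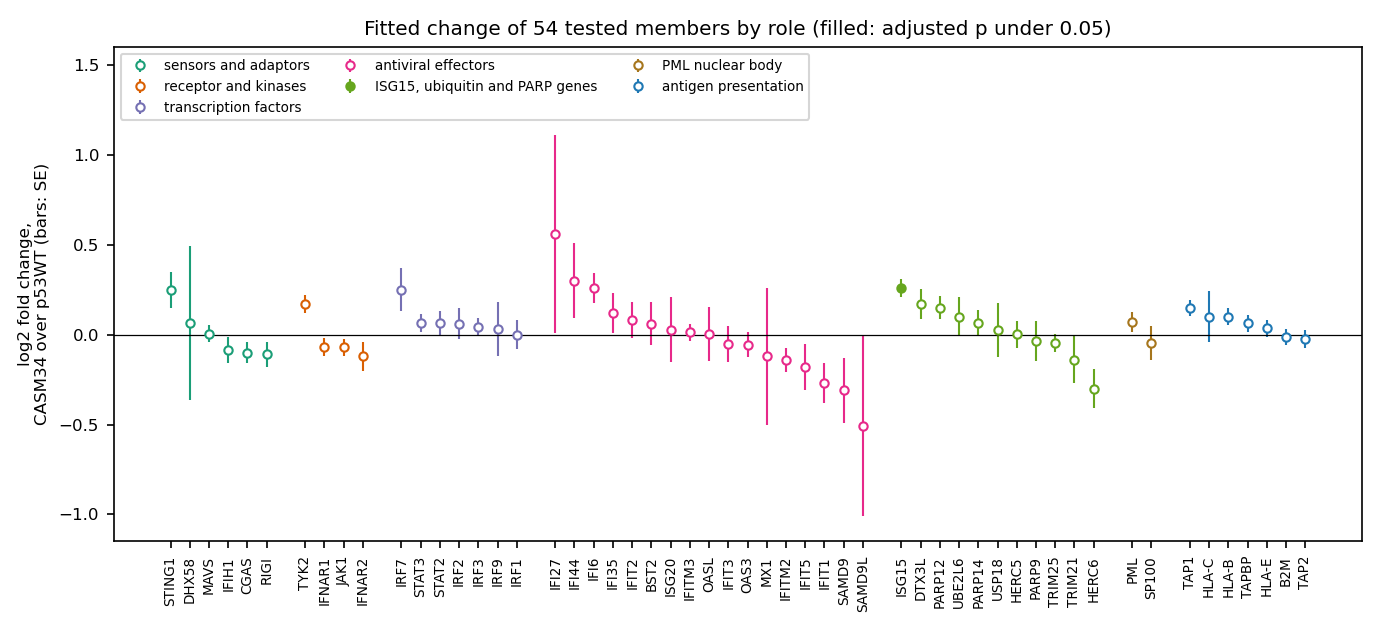
Fitted log2 fold change of CASM34 over p53WT for the 54 tested members, grouped by role, with bars for the standard error (2 libraries a group). The filled point is ISG15, the single gene past the adjusted threshold, and the widest bars belong to low genes such as IFI27, SAMD9L, DHX58 and MX1.

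ISG15 (ENSG00000187608.10, GRCh38 chromosome 1, 1001138 to 1014540, plus strand, GENCODE 29) had 136 and 138 CPM in CASM34 and 110 and 119 CPM in p53WT, where CPM is the count scaled to library size with TMM factors. Both CASM34 libraries were thus above both p53WT libraries. The means were 137 ± 1.17 CPM in CASM34 and 115 ± 6.72 CPM in p53WT (SD, n = 2 each), and the log2 fold change was 0.26 (adjusted p = 0.0222 by edgeR, SE 0.050). Its product is conjugated to other proteins in the interferon response and is also secreted. The gene had whole counts in all 4 libraries, and it shares 36 exonic bases with a gene on the other strand. The call was lost without p53WT replicate 1, at 0.20 (adjusted p = 0.190 by edgeR). After correction of every library for its own dependence on GC content and length, called the GC and length offset here, the value was 0.10 (adjusted p = 0.362 by edgeR), and ISG15 transcripts are rich in G and C (64.1%). With an effective length offset and in limma on log2(TPM + 1), the fold stayed at 0.25 and did not pass (adjusted p = 0.263 and 0.317).

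**Figure D3:**
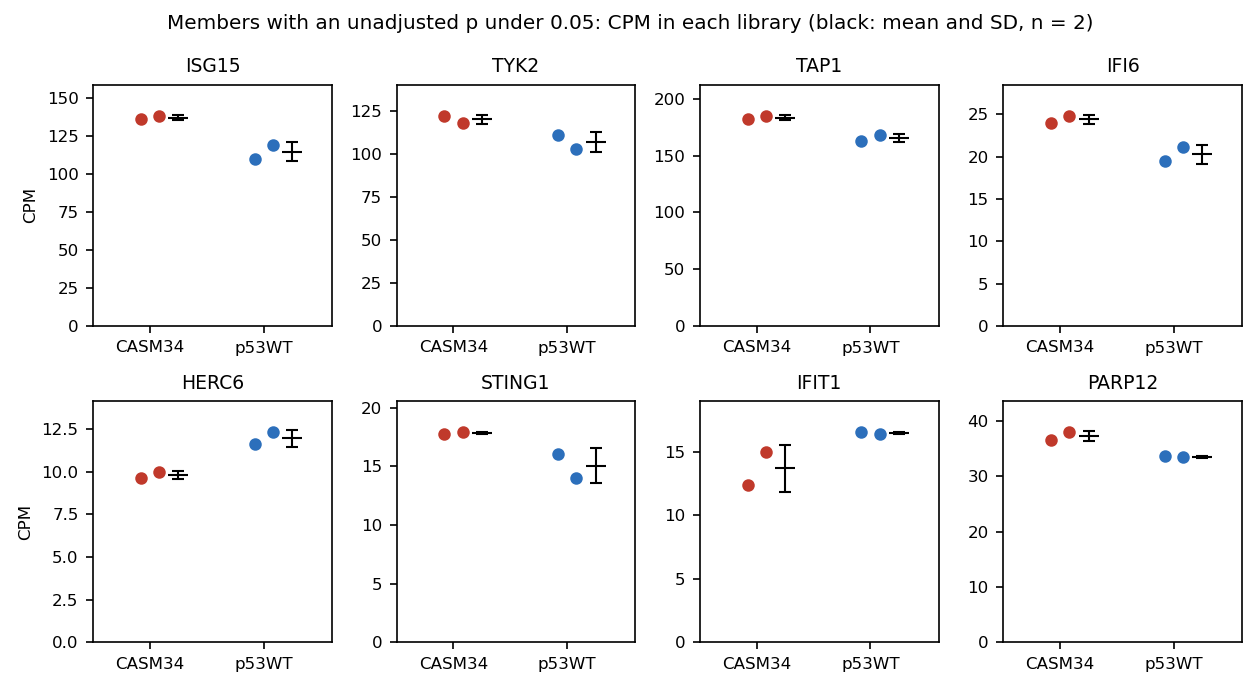
CPM in each library for the 8 members with an unadjusted p under 0.05, with CASM34 on the left and p53WT on the right of each panel, points for libraries and black marks for the mean and SD (n = 2). ISG15, TYK2, TAP1, IFI6, STING1 and PARP12 are higher in both CASM34 libraries and HERC6 and IFIT1 are lower in both, and ISG15 alone passed after adjustment.

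No counts were found for the listed interferon genes. IFNB1, IFNL1 and IFNG, which encode the beta, lambda and gamma interferons, had 0 counts in all 4 libraries, which allows up to 3 counts per library.

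Of the 6 tested sensor and adaptor genes none passed. CGAS, which encodes the enzyme that makes a cyclic dinucleotide on binding DNA, was the highest of them, at 30.1 and 32.0 TPM in CASM34 and 33.5 and 32.0 TPM in p53WT. The log2 fold change of CGAS was -0.10 (adjusted p = 0.441 by edgeR, SE 0.059). STING1, the receptor for that dinucleotide, had 13.4 and 14.9 TPM in CASM34 and 12.3 and 10.7 TPM in p53WT. The groups of STING1 did not overlap, and its log2 fold change was 0.25 (adjusted p = 0.213 by edgeR, SE 0.10), against 0.14 with the GC and length offset. RIGI, the gene of the RNA helicase RIG-I, had 28.5 ± 0.786 CPM in CASM34 and 30.8 ± 0.462 CPM in p53WT (SD, n = 2 each), and its log2 fold change was -0.11 (adjusted p = 0.468 by edgeR, SE 0.070). IFIH1, the gene of MDA5, had a mean level of 11.4 TPM, and MAVS, the mitochondrial adaptor of both helicases, had 12.7 TPM. Their fitted log2 changes were -0.084 and 0.0049. The GC and length offset brought both CGAS and RIGI to -0.045.

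A pair of members in this group were almost absent. IFI16, a nuclear DNA sensor gene, had 5 and 2 counts in CASM34 and 2 and 4 counts in p53WT. DHX58, which encodes LGP2, a helicase that lacks the signalling domain of RIG-I, had 23 and 11 counts in CASM34 and 15 and 19 counts in p53WT. The DNA route in these cells thus held transcripts of CGAS and STING1 at over 10 TPM in every library and of IFI16 at no more than 0.16 TPM.

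The interferon receptor and its kinases were all present. IFNAR1 lay at 24.7 and 26.6 TPM in CASM34 and 27.1 and 26.9 TPM in p53WT, and IFNAR2, the second chain, at 16.8 and 13.1 TPM in CASM34 and 17.6 and 15.8 TPM in p53WT. IFNAR2 had fractional counts in all 4 libraries and shares 2038 exonic bases with a gene model on the same strand, so its level is uncertain. TYK2, the kinase bound to IFNAR1, had 122 and 118 CPM in CASM34 and 111 and 103 CPM in p53WT, and these groups did not overlap. The log2 fold change of TYK2 was 0.17 (adjusted p = 0.105 by edgeR, SE 0.050). TYK2 passed without CASM34 replicate 2, at 0.19 (adjusted p = 0.0487 by edgeR), and the GC and length offset brought it to 0.026. JAK1, the kinase bound to IFNAR2, had 113 ± 3.13 CPM in CASM34 and 118 ± 3.47 CPM in p53WT (SD, n = 2 each), and its log2 fold change was -0.070 (adjusted p = 0.494 by edgeR, SE 0.048), against -0.14 with the effective length offset. IFNAR2 had one of -0.12 (adjusted p = 0.502 by edgeR, SE 0.081). None of these 4 genes passed.

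None of the 7 transcription factor genes passed, although all 7 fitted changes lay above 0. With the GC and length offset 3 of the 7 did, and the median of the 7 was 0.061 without it and -0.036 with it. IRF3, which responds directly to MAVS and STING, was the highest, at 103 and 126 TPM in CASM34 and 99.7 and 116 TPM in p53WT. Its groups overlapped in TPM, its log2 fold change was 0.043 (adjusted p = 0.717 by edgeR, SE 0.050), and its exons share 734 bases with BCL2L12 on the other strand. IRF7, which amplifies interferon production, had 15.2 and 12.8 CPM in CASM34 and 10.7 and 12.8 CPM in p53WT, a log2 fold change of 0.25 (adjusted p = 0.325 by edgeR, SE 0.12). The GC and length offset brought IRF7 to -0.038, and at 67.2% its transcripts had the highest GC content of the tested members.

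The subunits of the ISRE-binding complex were at lower levels than IRF3. STAT2 lay at 11.2 and 10.6 TPM in CASM34 and 10.9 and 10.5 TPM in p53WT, and its log2 fold change was 0.063 (adjusted p = 0.683 by edgeR, SE 0.066). IRF9, the DNA-binding subunit, lay at 6.72 and 5.19 TPM in CASM34 and 6.94 and 5.53 TPM in p53WT. It had fractional counts in all 4 libraries and shares 1838 exonic bases with a gene model on the same strand, so its level is uncertain. The groups of IRF9 overlapped. STAT3, which responds mainly to cytokines of the interleukin-6 family, had a mean of 30.5 TPM and a log2 fold change of 0.064 (adjusted p = 0.559 by edgeR, SE 0.050). IRF1, an activator of antigen presentation genes, ranged over 42.7 and 27.9 TPM in CASM34 and 34.8 and 26.7 TPM in p53WT, a spread within each group larger than the distance between the groups, and its log2 fold change was 0.00055 (adjusted p = 0.999 by edgeR, SE 0.079). IRF2, which competes with IRF1, stayed between 11.5 and 12.1 TPM in the 4 libraries.

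The 18 antiviral effectors covered the widest range of levels, and of the 17 tested none passed. Their median log2 fold change was 0.0033, with 9 above and 8 below 0. IFI6, a mitochondrial and endoplasmic reticulum protein gene with 3 ISRE matches, had 24.0 and 24.8 CPM in CASM34 and 19.5 and 21.1 CPM in p53WT. Both CASM34 libraries were higher, and the log2 fold change of IFI6 was 0.26 (adjusted p = 0.128 by edgeR, SE 0.083). Under the GC and length offset IFI6 stood at 0.23 (adjusted p = 0.243 by edgeR), where ISG15 lay at 0.10. IFIT1, which binds viral RNA that lacks a proper cap, ran the other way, with 13.7 ± 1.85 CPM in CASM34 and 16.4 ± 0.107 CPM in p53WT (SD, n = 2 each), and both CASM34 libraries were lower. The log2 fold change of IFIT1 was -0.27 (adjusted p = 0.215 by edgeR, SE 0.11), and it passed as lower without CASM34 replicate 2, at -0.41 (adjusted p = 0.0219 by edgeR).

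The IFIT genes lie within 137 kb on chromosome 10 (89283694 to 89421001), and their levels were alike. IFIT3 had a mean of 7.61 TPM, IFIT2 6.10 TPM, IFIT5 5.18 TPM and IFIT1 4.47 TPM. Their summed level was 23.4 and 23.9 TPM in CASM34 and 23.5 and 22.7 TPM in p53WT. Within that sum the share of IFIT1 was 15.7% and 18.6% in CASM34 and 21.1% and 21.2% in p53WT. In TPM, IFIT5 lay above IFIT1 in both CASM34 libraries and below it in both p53WT libraries.

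That difference in IFIT5 depended on the unit. Its counts gave 7.94 and 8.71 CPM in CASM34 and 9.94 and 8.94 CPM in p53WT, a log2 fold change of -0.18 (adjusted p = 0.513 by edgeR, SE 0.13), while its TPM was higher in both CASM34 libraries (5.79 and 5.98 TPM in CASM34 and 4.38 and 4.59 TPM in p53WT). The effective length that RSEM assigned to the gene was 1618 and 1725 bases in CASM34 and 2725 and 2297 bases in p53WT. DHX58 also had shorter effective lengths in CASM34, with 873 and 715 bases in CASM34 and 1306 and 1322 bases in p53WT. It had at most 23 counts in any library, so these lengths rest on few reads. MX1, another low gene, had 1272 and 2438 bases within p53WT.

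The IFITM genes lie within 19.9 kb on chromosome 11 (307631 to 327537) and had very unequal levels. IFITM3 held 82.2% and 81.9% of their summed TPM in CASM34 and 80.7% and 79.8% in p53WT, and IFITM2 held nearly all of the rest. IFITM1, which acts at the cell surface, had 7 and 6 counts in CASM34 and 10 and 9 counts in p53WT, although its promoter window holds 2 ISRE matches. IFITM2 had 41.3 and 46.3 CPM in CASM34 and 46.7 and 49.4 CPM in p53WT, a log2 fold change of -0.14 (adjusted p = 0.307 by edgeR, SE 0.067), and that of IFITM3 was 0.013 (adjusted p = 0.920 by edgeR, SE 0.046). IFITM2 and IFITM3 had fractional counts in all 4 libraries, and IFITM1 and IFITM2 share 351 exonic bases on the same strand, so reads of this family may have been divided between its members.

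Among the other effectors BST2, which tethers virus particles to the cell surface, had a mean of 17.5 TPM, and OAS3, which makes the activator of RNase L, had 13.2 TPM. MX1, a dynamin-like GTPase and a standard marker of interferon exposure, had 31 and 26 counts in CASM34 and 19 and 48 counts in p53WT, a mean of 0.752 TPM. IFI27, another such marker, had 12 and 13 counts in CASM34 and 10 and 8 counts in p53WT. The neighbouring genes SAMD9 and SAMD9L, which restrict poxviruses, lay at 0.808 and 0.155 TPM on average. The fitted log2 changes of these low genes ran from -0.51 for SAMD9L (SE 0.50) to 0.56 for IFI27 (SE 0.55). Those of SAMD9L and IFI27 were about the size of their errors. SAMD9 had -0.31 (SE 0.18) and MX1 -0.12 (SE 0.38).

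Of the 11 genes for ISG15 conjugation, ubiquitin ligases and ADP-ribosylation, ISG15 rose and the other 10 did not pass. The enzymes that attach and remove ISG15 were present at much lower levels than ISG15 itself. UBE2L6, the conjugating enzyme, had a mean of 14.6 TPM, HERC5, the ligase, had 12.8 TPM, and USP18, the protease that removes ISG15, had 5.39 TPM. The log2 fold changes of UBE2L6, HERC5 and USP18 were 0.10, 0.0011 and 0.027. HERC6, the neighbour of HERC5 on chromosome 4 and a relative of it, had 9.62 and 9.97 CPM in CASM34 and 11.6 and 12.3 CPM in p53WT. In CPM both CASM34 libraries were lower, and the log2 fold change of HERC6 was -0.30 (adjusted p = 0.200 by edgeR, SE 0.11). In TPM the groups of HERC6 overlapped, with 5.06 and 3.54 TPM in CASM34 and 5.09 and 4.42 TPM in p53WT. The change of HERC6 was -0.15 with the effective length offset and -0.13 in limma on log2(TPM + 1).

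PARP12, a mono-ADP-ribosyltransferase gene, had 36.6 and 37.9 CPM in CASM34 and 33.6 and 33.4 CPM in p53WT, a log2 fold change of 0.15 (adjusted p = 0.239 by edgeR, SE 0.064). PARP9 and DTX3L, whose products form a complex, lie head to head on chromosome 3 and share 217 exonic bases on opposite strands. Their mean levels were 4.07 and 5.09 TPM, and their log2 fold changes -0.035 and 0.17. PARP14, further along the same chromosome, had a mean of 4.88 TPM. TRIM25, the ubiquitin ligase that acts on RIG-I, had a mean of 40.2 TPM and a log2 fold change of -0.044 (adjusted p = 0.703 by edgeR, SE 0.050).

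PML, which builds the nuclear bodies that bear its name, had 86.1 and 80.1 CPM in CASM34 and 82.4 and 76.3 CPM in p53WT. The groups overlapped, and the log2 fold change of PML was 0.072 (adjusted p = 0.561 by edgeR, SE 0.056), against -0.11 with the GC and length offset. SP100, a resident of the same bodies, had 15.5 ± 0.206 CPM in CASM34 and 16.1 ± 0.388 CPM in p53WT (SD, n = 2 each), and its log2 fold change was -0.046 (adjusted p = 0.852 by edgeR, SE 0.094).

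Antigen presentation was the group with the highest median level, 66.2 TPM over 7 genes, and none of the 7 passed. The fitted change lay above 0 for 5 of the 7 with a median of 0.063, and with the GC and length offset for 2 of the 7 with a median of -0.058. B2M had 408 and 432 TPM in CASM34 and 437 and 404 TPM in p53WT, and its log2 fold change was -0.014 (adjusted p = 0.908 by edgeR, SE 0.045). HLA-B, a classical heavy chain, had 191 and 178 CPM in CASM34 and 172 and 173 CPM in p53WT, which did not overlap, and its log2 fold change was 0.10 (adjusted p = 0.332 by edgeR, SE 0.049). The direction of HLA-B turned with the GC and length offset, at -0.026. TAP1, a subunit of the peptide transporter, had 182 and 185 CPM in CASM34 and 163 and 168 CPM in p53WT. The groups of TAP1 did not overlap, and its log2 fold change was 0.15 (adjusted p = 0.113 by edgeR, SE 0.045), against 0.092 with the GC and length offset and 0.083 with the effective length offset. TAP1 had fractional counts in every library, with 456 exonic bases shared with PSMB8-AS1 on the other strand. TAP2, the partner subunit, had 135 and 137 CPM in CASM34 and 143 and 134 CPM in p53WT, which overlapped. TAP2 had fractional counts in all 4 libraries and shares 2064 exonic bases with a gene model on the same strand, so its level is uncertain. TAPBP, which encodes tapasin, the bridge between the transporter and MHC class I, had 109 and 105 CPM in CASM34 and 104 and 102 CPM in p53WT, a log2 fold change of 0.063 (adjusted p = 0.535 by edgeR, SE 0.047). The GC and length offset brought TAPBP to -0.12, whereas limma on log2(TPM + 1) gave 0.19.

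The heavy chain genes were unequal in level. Of the summed TPM of HLA-B, HLA-C and HLA-E, HLA-B held 70.5% and 69.6% in CASM34 and 69.8% and 68.7% in p53WT. HLA-E, a ligand of receptors on natural killer cells, held 26.8% and 27.7% in CASM34 and 27.5% and 28.6% in p53WT, and HLA-C held 2.74% and 2.68% in CASM34 and 2.74% and 2.64% in p53WT. HLA-B and HLA-C had fractional counts in 3 libraries each and these genes vary between people, so reads of the line's own alleles may have been assigned unevenly and the shares are those of the authors' alignment.

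A further 69 genes of the same pathways were listed by role, and 50 of them were high enough to test. None of the 50 passed by edgeR, where 1.95% of all genes were called. By edgeR 4 of the 50 had an unadjusted p under 0.05, where 17.1% of all genes had such a p. None passed by DESeq2, where 0 had an unadjusted p under 0.05, beside 8.73% of all genes. DESeq2 gave no adjusted p for many of the 50, IFI30 and PSMB8 among them, so these could not pass there. The median log2 fold change of the 50 was -0.013, with 23 above and 27 below 0. The 4 with an unadjusted p under 0.05 by edgeR, named after their values were seen, were LY6E, TICAM1, RFXANK and IFI30, all higher in CASM34. Their transcripts are rich in G and C (62.6%, 63.2%, 60.4% and 57.5%, in that order). Their log2 fold changes were 0.12, 0.18, 0.15 and 0.28, and the GC and length offset brought these to -0.051, -0.035, 0.034 and 0.22. Of 31 other interferon-stimulated genes 18 were tested, of 16 genes of interferon induction and signalling 13, and of 22 antigen presentation genes 19. Of the 19 untested genes 6 had 0 counts in all 4 libraries. These were IFNB1, IFNL1, IFNG, HLA-G and the strongly interferon-inducible RSAD2 and EPSTI1, and no untested gene exceeded 13 counts in any library. SOCS3, a feedback inhibitor of cytokine signalling, passed under the GC and length offset, at -0.32 (adjusted p = 0.0447 by edgeR), and had a log2 fold change of 0.0038 without it (adjusted p = 0.984 by edgeR).

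The direction of change among the members moved with GC content. Spearman's rho of GC content with log2 fold change was 0.538 over the 54 tested members and 0.468 over the 15664 tested genes with a GC value, as descriptions across genes that share libraries. Of the 27 members above the median GC content of 52.0%, 23 lay above 0, and of the 27 at or below it 10 did. With the GC and length offset these numbers were 10 and 12, the correlation over the members was -0.0228, and the median of the members was -0.033, beside -0.019 for all genes. The offset removes the trend of each library with GC content across genes, so the loss of the correlation was largely built in. It would also remove a true difference between the groups that follows GC content. No member passed with that offset, where 0.514% of all genes were called. TYK2, TAP1, IRF7 and PML lay closer to 0 or below it, while HERC6 (-0.29), IFIT1 (-0.22), PARP12 (0.16) and IFI6 (0.23) moved little from their values without it, although HERC6 did move with the effective length offset. Whether GC content or p53 set the direction for any single member was not tested.

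**Figure D4:**
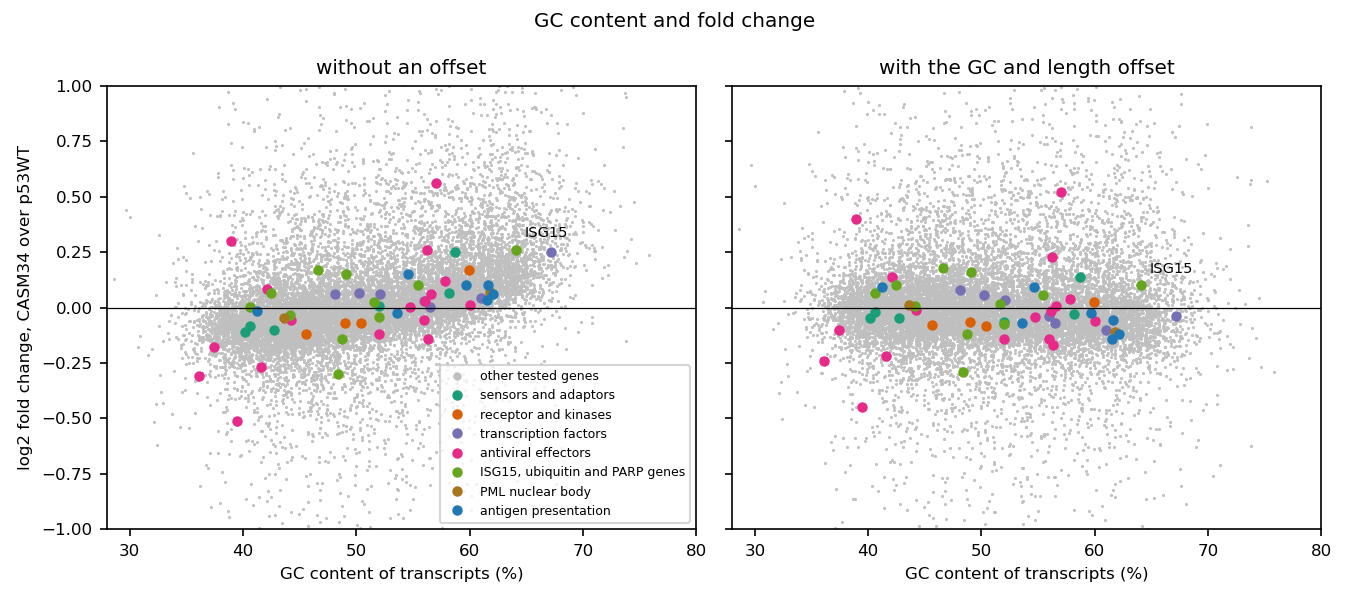
Log2 fold change of CASM34 over p53WT against transcript GC content for the tested genes (grey) and the members (coloured by role), without an offset on the left and with the GC and length offset on the right; the vertical axis is limited to changes between -1 and 1. The grey cloud and the members rise with GC content on the left. On the right, where the offset removes that trend by design, they lie flat, and ISG15 sits at 0.10.

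Members with and without an ISRE match overlapped in level. The 24 members with a match had a median of 9.49 TPM and ran from 0.752 to 517 TPM, and the 19 with a promoter window and no match had a median of 12.7 TPM and ran from 0.117 to 167 TPM. Both the highest members (IFITM3, ISG15 and B2M) and some of the lowest (MX1, SAMD9, IFI27 and IFITM1) held a match. By role, matches were found in IFIT1, IFIT3, IFIT5, MX1, OAS3, BST2 and other effectors, in 4 of the antigen presentation genes (B2M, TAP1, TAP2 and TAPBP) and in none of the receptor and kinase genes with a window (IFNAR1, JAK1 and TYK2). The median log2 fold change was 0.013 for the 23 tested members with a match and 0.0027 for the 18 tested without. The members with no promoter entry were DHX58, CGAS, STING1, IFNAR2, IRF2, IRF3, IRF7, IFIT2, OASL, IFITM2, USP18, PML and HLA-E.

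**Figure D5:**
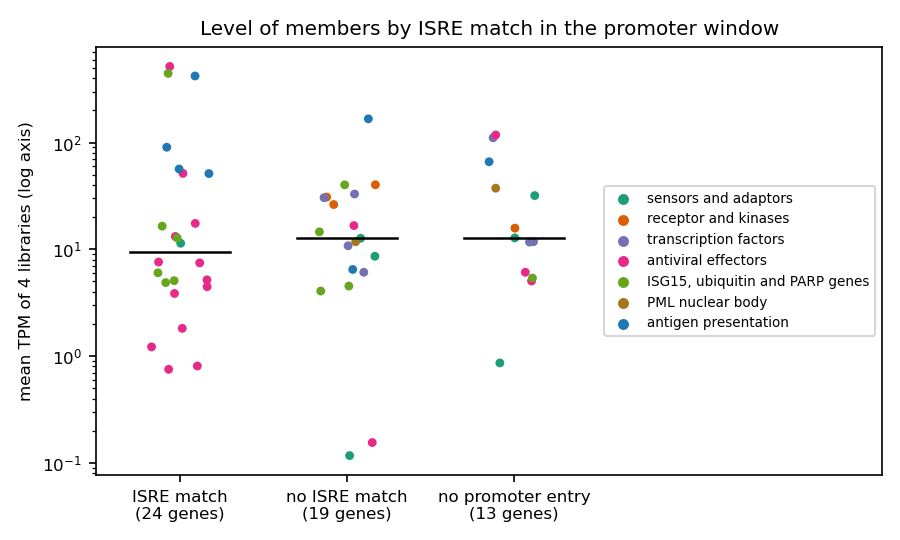
Mean TPM over the 4 libraries on a log axis for members with an ISRE match in the promoter window (24), with a window and no match (19) and with no promoter entry (13), coloured by role, with a line at the median. The ranges overlap, and the group with a match holds both the 3 highest members and MX1, SAMD9, IFI27 and IFITM1 near the bottom.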

How the data were processed

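RNA was measured in 2 CASM34 and 2 p53WT libraries, grouped by their titles. RSEM, STAR, Trim Galore and the build GRCh38 are named per the submitters' processing notes. Versions, annotation release and strand option: not given in the sources used here. Both the deposited expected counts and the deposited TPM are RSEM estimates, per the file headers, and so is the deposited effective length. RSEM divides reads that match several genes, so 8.63% to 9.26% of all 61852 genes per library had fractional counts (tolerance 0.001). Only 21595 to 22504 genes per library had any count, so the share among genes with counts was higher. Of the 56 members, 19 had fractional counts in any library and 10 in all 4. Replicates of a group differed by more than counting error (chi-square per degree of freedom 3.94 in CASM34 and 3.89 in p53WT).

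Expected counts were rounded and tested with edgeR 4.0.16 in R 4.3.3 (TMM scaling, group as sole term, low genes removed by filterByExpr at a count of 10; 15965 genes tested). The SE of a log2 fold change is its size over the square root of the F statistic. Alternatives used DESeq2 1.42.0, limma 3.58.1 on log2(TPM + 1), no filter, a mean CPM of at least 1, median-of-ratios scaling, an effective length offset, a GC and length offset (splines with 5 degrees of freedom on log2 CPM, prior count 2), a replicate block and leaving out each library. GC content is the mean over GENCODE 29 transcripts and was known for 15664 tested genes; the others had no offset. Scripts were tested on simulated data. A floor of 3 counts covers counting error only.

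The members and lists were chosen with earlier results of these data known. Full statistics are given for members that passed and, per role, for the 3 with the smallest p and the 2 with the highest TPM. HLA, IFIT, IFITM and other members beside them are given as levels, some with a fold change. IFIT5 has full statistics outside this rule. The transcript of the introduced p53 is not reported here.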

Additional observations from a re-analysis of the deposited data

How the results depend on the processing

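The count of all genes called was 312 in the fit reported. It was 777 with no filter on low counts, 203 with DESeq2, 3 with the effective length offset, 82 with the GC and length offset and 0 in limma on log2(TPM + 1), with 1820 below an unadjusted p of 0.05. Leaving out each library gave 109 to 919. The count of members called was 1 in the fit reported, 0 with limma on log2(TPM + 1) (6 at an unadjusted p under 0.05, where 11.4% of all genes had such a p), 0 with the effective length offset (5, beside 11.9% of all genes) and 0 with the GC and length offset (10, beside 12.5%), and 0 to 3 without each library in turn. The count of further pathway genes called was 0 in the fit reported and 1 with the GC and length offset, which was SOCS3. The median log2 fold change of the members was -0.033 with that offset, and the cause of these changes was not tested. The median rank of the members by level moved to the percentile 55.4 with CPM in place of TPM, and the share of promoters with an ISRE rose to 72.1% when 1 mismatch was allowed, where 33.4% of all promoters had such a match.

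The labels do not say whether same-numbered libraries were handled as pairs. Their deviations correlated at 0.0378 across genes, which cannot settle it, and the fit reported used no replicate block. With the replicate block 1159 of the 15965 tested genes were called. Of the 54 tested members 4 were called (ISG15, TYK2, IFI6 and TAP1), a share close to that of all genes. At an unadjusted p under 0.05 there were 22.2% of the members, beside 19.5% of all genes. With the replicate block and the GC and length offset 567 genes, 0 members (13 at an unadjusted p under 0.05, beside 14.3% of all genes) and 1 further pathway gene were called, and the median of the members was -0.036.

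Fitted directions changed for 28 of the 54 tested members in at least 1 alternative, and none of these 28 passed in the fit reported. The log2 fold changes that changed sign were as follows, with the cause not tested. Median-of-ratios scaling gave IRF1 -0.0019, HERC5 -0.0013. No filter gave MAVS -0.0022, IRF1 -0.0061, OASL -0.0040, HERC5 -0.0057. DESeq2 gave IRF1 -0.0051, HERC5 -0.0036. Limma on log2(TPM + 1) gave MAVS -0.0035, IRF2 -0.039, IRF9 -0.059, IFIT5 0.33, ISG20 -0.0098, UBE2L6 -0.0039, PARP9 0.015. The effective length offset gave MAVS -0.0077, IRF2 -0.046, IRF9 -0.060, IFIT5 0.39, ISG20 -0.033, UBE2L6 -0.0080, HERC5 -0.0022, PARP9 0.016. The GC and length offset gave DHX58 -0.029, MAVS -0.064, IRF1 -0.068, IRF3 -0.10, IRF7 -0.038, IRF9 -0.036, OASL -0.043, ISG20 -0.016, IFITM3 -0.063, PARP9 0.0055, PML -0.11, SP100 0.011, B2M 0.091, HLA-B -0.026, HLA-C -0.058, HLA-E -0.14, TAPBP -0.12. The replicate block gave IRF1 -0.0063, HERC5 -0.0042. The replicate block with the GC and length offset gave DHX58 -0.053, MAVS -0.062, IRF1 -0.075, IRF3 -0.10, IRF7 -0.035, IRF9 -0.053, OASL -0.038, ISG20 -0.0064, IFITM3 -0.064, PARP9 0.0044, PML -0.11, SP100 0.0080, B2M 0.089, HLA-B -0.027, HLA-C -0.061, HLA-E -0.14, TAPBP -0.12. Without each library in turn the ranges were DHX58 -0.24 to 0.27, MAVS -0.016 to 0.026, IRF1 -0.10 to 0.10, IRF9 -0.14 to 0.16, IFIT2 -0.0100 to 0.17, MX1 -0.54 to 0.55, OAS3 -0.16 to 0.032, OASL -0.062 to 0.075, ISG20 -0.11 to 0.18, BST2 -0.0029 to 0.13, IFITM3 -0.016 to 0.042, HERC5 -0.080 to 0.077, USP18 -0.12 to 0.14, TRIM25 -0.10 to 0.0065, B2M -0.036 to 0.0070, HLA-E -0.014 to 0.083, TAP2 -0.071 to 0.019. Members under 50 counts in every library have errors too wide to show a change of the size seen in ISG15. Members with over 50 counts in every library also had changes of about that size and did not pass in the fit reported. Among them were IFI6 (0.26, SE 0.083), STING1 (0.25, SE 0.10), IRF7 (0.25, SE 0.12), IFIT1 (-0.27, SE 0.11) and HERC6 (-0.30, SE 0.11). A member that did not pass is therefore not shown to be unchanged.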
